A study of Xenopus laevis with 64 samples.

Results

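Perchlorate (PER, 4 mg/L) was set against unexposed controls in the hindlimb of Xenopus laevis tadpoles after 96 h of exposure. The groups compared hold 6 of the 64 arrays of the series: the 3 arrays whose titles give hindlimb, 96 h and PER, and the 3 whose titles give hindlimb, 96 h and control. Normalization and fit used all 38 hindlimb arrays, so the p-values also draw on the spread in the other groups. Those include hindlimbs at 24 h treated with the hormones T3 or T4, the controls of these, and hindlimbs at 24 h with PTU or MMI. Each array held amplified, P32-labelled RNA of 1 animal, hybridised to a cDNA array of 406 duplicate spot pairs, and all animals were at NF stage 54 when exposure began. Hindlimbs at 24 h with PER (3 arrays) and their controls (3 arrays), and hindlimbs at 96 h with propylthiouracil (PTU, 20 mg/L, 3 arrays) or methimazole (MMI, 100 mg/L, 3 arrays), served to set the 96 h change in context. Tails at 48 h with PER (4 mg/L) and tail controls of that time were compared apart from the hindlimbs. The tail arrays were normalized and fitted as a set of their own. That set also holds tails at 48 h with PTU, MMI, T3 or T4 and the hormone controls, so tail p-values draw on their spread too. Per the labels, 10 tadpoles of a treatment came from 2 of its 6 tanks at each time, but tank numbers of single animals are not among the labels used here. The p-values below therefore measure the spread between animals, which may share tanks within a group.

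Perchlorate competes with iodide for the sodium-iodide symporter of the thyroid gland, and without iodide the gland cannot make thyroid hormone. PTU and MMI act one step later, on the peroxidase that couples iodine to thyroglobulin. In a tadpole the hindlimb grows under rising thyroid hormone, and its cells divide in answer to it, so the limb meets a blocked thyroid through the hormone that reaches it with the blood. Genes of the cell cycle, of muscle and of thyroid hormone response on the array are therefore given as groups below.

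One pair of spots, pair 260, which has no gene name here, was higher in PER hindlimbs at an adjusted p of 0.046 in limma, and 0 pairs were lower. That call was lost without control replicate 2. The cyclin D genes ccnd1.L and ccnd2.L had lower quantile-normalized values in all 3 PER hindlimbs than in any control, at an adjusted p of 0.0932 each in limma, but both overlapped in deposited units. The lactate dehydrogenase gene ldhb.S was also lower in every PER hindlimb after quantile normalization, but there PER replicate 2 and control replicate 2 nearly tied at 14.85. Relative to the bright pairs of the same array it was lower without overlap, and it overlapped in deposited units. Of all 35 pairs tested, 3 were lower without overlap after quantile normalization (8.57%) and 3 were higher (8.57%). Relative to the bright pairs, 3 of 16 were lower (18.8%) and 1 was higher (6.25%). All other named genes that could be tested overlapped between the groups.

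The 6 arrays were unequal. A pair was counted as above background where its mean exceeded 2 noise SD of the array, the noise being estimated from the values below 0. By that rule 39, 56 and 46 pairs were above background on PER replicates 1, 2 and 3, against 39, 22 and 35 pairs on control replicates 1, 2 and 3. Control replicate 2, the array with the fewest, also held the brightest spot of the 6 arrays, at 187855 intensity units. It was the lowest of the 6 arrays in 12 of the 35 pairs tested, and the lowest PER array, replicate 1, in 7. On PER replicate 2, 39.8% of the measured spots stood at exactly 0, against 6.19% and 12.8% on PER replicates 1 and 3 and 6.82%, 7.48% and 7.46% on the controls. Rank correlations over the 35 pairs did not sort the arrays by group: control replicate 3 correlated at 0.899 with PER replicate 2 and at 0.823 with control replicate 1. The part of these array differences in the results was not tested, and changes with PER at 96 h against control are given with and without control replicate 2.

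**Figure D1:**
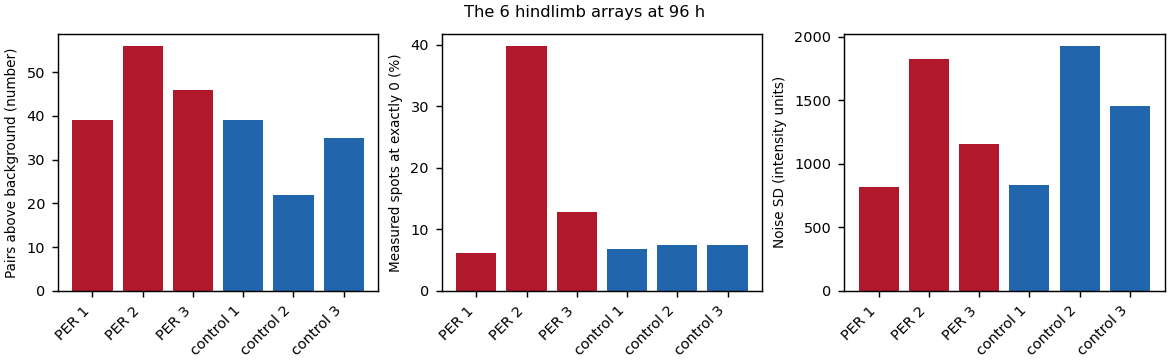
Bars give, for the 3 PER (red) and the 3 control (blue) hindlimb arrays at 96 h, the number of pairs above background, the percentage of measured spots at exactly 0 and the noise SD in intensity units. Control replicate 2 has the fewest pairs above background (22), and PER replicate 2 the most spots at 0 (39.8%).

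Of the 406 pairs, 35 were above background on at least 3 of the 6 arrays and were tested, 19 of them with a gene name. Of these, 16 were above background on all 6 arrays. A further 8 (nkx2-2.S, hmgn3.L and pairs 124, 159, 260, 345, 357 and 363) were above background on all 3 PER arrays and on fewer than 3 controls, 0 the other way round. The selection itself thus favours pairs that are high with PER, pair 260 included, and the direction of these 8 is no support for a rise. It leans the same way for pabpc1.S, odc1.L, tpm4.S, des.1.S, myf5.L and pairs 291 and 391. These were above background on 2 PER arrays and 1 control, so their direction is no support either. In limma, 1 of 35 pairs was called at an adjusted p under 0.05, or 2.86%. At an unadjusted p under 0.05 there were 7 pairs, or 20%, 5 higher and 2 lower with PER. Changes are differences of log2 values after normexp and quantile normalization, PER minus control. Their median over all 35 pairs was 0.22, with 23 pairs higher and 12 lower, and it was 0.54 with the deposited values as they stand, 0.75 with median centring and 0.55 with centring on the bright pairs. The 95% interval of a change had a median half-width of 1.06, which is wider than a 2-fold difference for most pairs.

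The spread between arrays, each of 1 animal, had the higher median in the control group. The median SD was 0.41 on the log2 scale with PER and 0.77 in controls. It was 0.52 in controls without replicate 2, where each SD comes from 2 arrays at most. Differences between animals and between arrays cannot be told apart here. The control SD exceeded the PER SD in 21 of 35 pairs. The test pools the spread over all 38 hindlimb arrays, also for pairs in which the 3 controls disagreed.

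**Figure D2:**
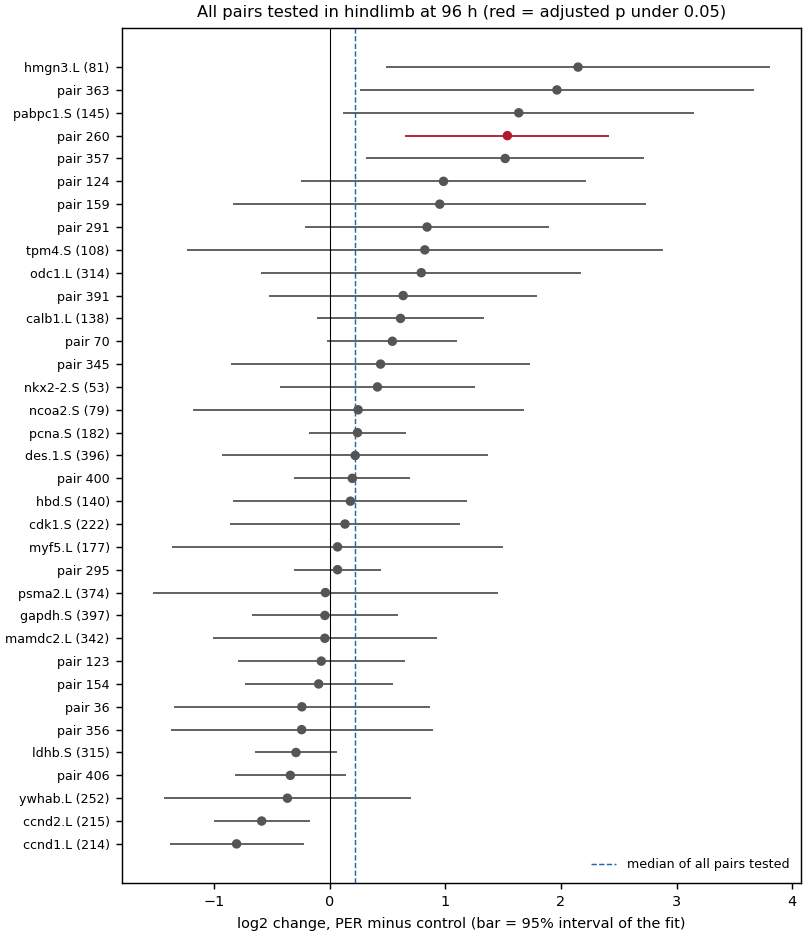
Points give the log2 change (PER minus control) of each of the 35 pairs tested, with the 95% interval of the fit as a bar. The dashed line marks the median change of 0.22, and pair 260 alone (red) has an adjusted p under 0.05.

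Pair 260 stood at 14.08, 14.31 and 14.17 on the log2 scale in PER hindlimbs, against 13.22, 10.86 and 13.87 in control hindlimbs. The PER animals were tightly grouped and all above the controls, which spread widely, with replicate 2 far below the others. Its change was 1.54 (SE 0.43, 95% interval 0.65 to 2.42, adjusted p = 0.046 in limma). An exact permutation test over the 6 animals gave a two-sided p of 0.1, the smallest that 3 against 3 can give. Without control replicate 2 the change was 0.62 (adjusted p = 0.449). Over 20 alternatives the call was kept in 7. The selection favours this pair, so neither its p nor the calls kept support its direction. In deposited units the pair read 8873, 42460 and 24037 with PER, against 5976, 1734 and 17262 in controls, and there the groups overlapped. Both spots of the pair were low on control replicate 2, at 2305 and 1163 units.

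The cyclin D genes were the named pairs with the smallest p. D-type cyclins bind the kinases that carry a cell from G1 towards DNA synthesis, and their genes answer to growth signals. The normalized log2 value of ccnd2.L was 13.83, 13.77 and 13.33 in PER hindlimbs, against 13.91, 14.52 and 14.27 in control hindlimbs. All 3 PER values lay below all 3 controls, though PER replicate 1 and control replicate 1 nearly met. Its change was -0.59 (SE 0.20, adjusted p = 0.0932 in limma), and -0.43 without control replicate 2.

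For ccnd1.L the normalized log2 values were 12.22, 12.49 and 12.51 with PER, against 13.21, 13.61 and 12.82 in controls. Again the groups did not overlap, and the change was -0.81 (SE 0.28, adjusted p = 0.0932 in limma), or -0.62 without control replicate 2. The spots of the pair disagreed on 2 arrays: they read 5345 and 1169 units on PER replicate 1, and 5484 and 21372 units on control replicate 2.

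The separation of both cyclins was seen after quantile normalization and not in deposited units. In deposited units ccnd1.L read 3257, 19438 and 11402 with PER, against 5976, 13428 and 12455 in controls, and ccnd2.L 7228, 34677 and 18727 with PER, against 9281, 41589 and 23219 in controls. On that scale the groups overlapped for both genes. The change of ccnd1.L was -0.14 with the deposited values, -0.11 with centring on bright pairs and 0.09 with median centring, and that of ccnd2.L was -0.30, -0.26 and -0.06. With only the PER and control groups of 96 h in the fit, the adjusted p in limma was 0.440 for ccnd1.L and 0.505 for ccnd2.L. With spots at exactly 0 treated as blank, a treatment added after the data were seen, both cyclins passed in limma. There ccnd1.L read -1.14 (adjusted p = 0.00197) and ccnd2.L -0.83 (adjusted p = 0.0096). The same treatment lowered the median change over all 35 pairs from 0.22 to 0.06, and pair 260 from 1.54 to 1.35. The downward shift was thus not confined to the cyclins, and its part in their passes was not tested.

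Of the 14 genes of the cell cycle list on the array, 4 were tested and 0 were called in either direction. Their median change was -0.23, against 0.22 over all 35 pairs. All 4 were above background on all 6 arrays, while the 35 include pairs that the selection favours as high with PER. The 2 medians are thus not alike in selection, and the gap between them is no result about the list. The other 2 tested members were not lower. pcna.S, which encodes the sliding clamp of DNA polymerase, stood at 14.28, 14.84 and 14.46 with PER, against 14.22, 14.19 and 14.46 in controls. That is a change of 0.24 (SE 0.20, adjusted p = 0.583 in limma) with overlapping groups, or 0.18 without control replicate 2. The mitotic kinase gene cdk1.S stood at 11.71, 12.89 and 12.88 with PER, against 11.35, 12.38 and 13.37 in controls, and the PER values lay within the wider range of the controls. The spots of cdk1.S disagreed strongly: -466 and 6080 units on control replicate 1, 18734 and 2092 on control replicate 2, and 4219 and 448 on PER replicate 1. Its change was 0.13 (SE 0.49, adjusted p = 0.922), or 0.14 without control replicate 2, and it changed sign when any of 3 single arrays was left out. The 10 members not tested included ccne1.L, cdk2.S, cdk7.L, the replication licensing genes mcm2.L, mcm3.L, mcm4.S and mcm5.L, and the licensing inhibitor gmnn.S. Of these 10, only rrm1.L, for a subunit of ribonucleotide reductase, was above background on any of the 6 arrays, at 5328 units on PER replicate 2.

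**Figure D3:**
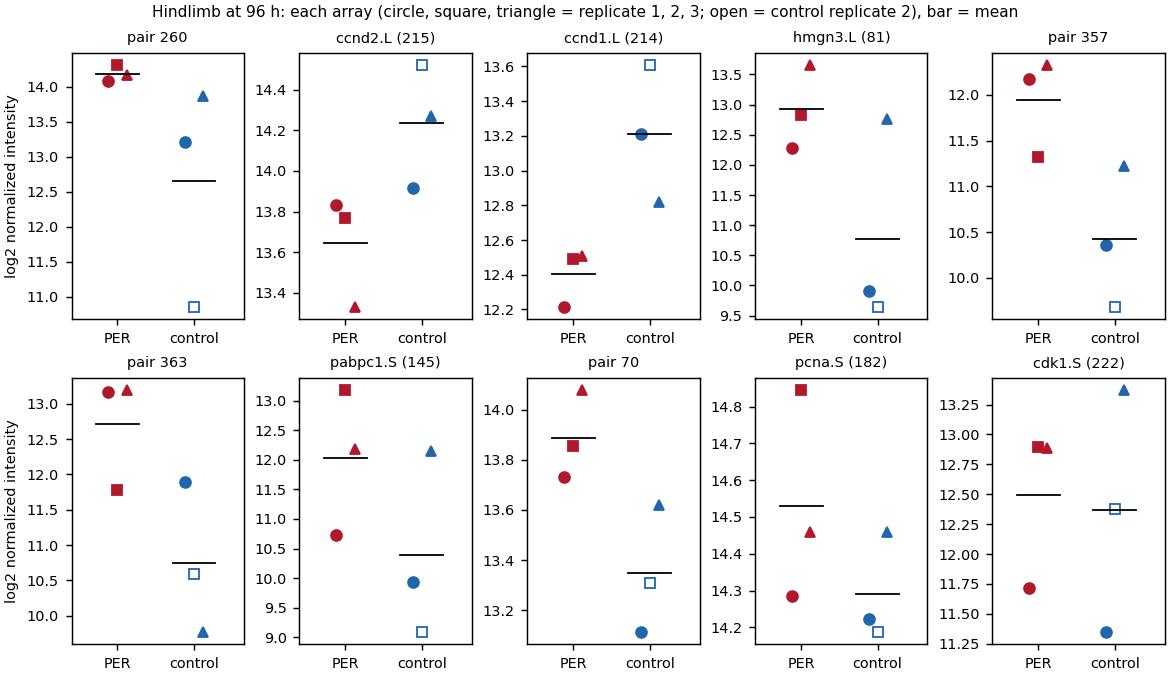
Each point is the normalized log2 intensity of 1 hindlimb array at 96 h, PER (red, left) beside control (blue, right), for the 8 pairs with the smallest p and for pcna.S and cdk1.S. Pair 260, ccnd2.L, ccnd1.L, pair 357 and pair 70 do not overlap on this scale. Pair 260, pair 70 and both cyclins overlap in deposited units, and ccnd1.L reads 0.09 with median centring. The open square is control replicate 2.

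Of the 8 pairs with the smallest p, 5 more were higher with PER on average. hmgn3.L encodes a nucleosome-binding protein of the HMGN family, and its human form is known to bind thyroid hormone receptor. It stood at 12.28, 12.83 and 13.65 with PER, against 9.92, 9.65 and 12.75 in controls. Control 3 lay within the PER range, so the groups overlapped. Controls 1 and 2 were not above background and read -75.3 and -826 in deposited units. The fitted size of the change thus rests in part on controls in which the pair was not detected. The change was 2.15 (SE 0.81, adjusted p = 0.106 in limma), or 1.60 without control replicate 2. It lay between 1.60 and 3.14 over 20 alternatives and passed in 2 of them, with median centring and without control replicate 3. hmgn3.L is among the pairs that the selection favours, so neither that p nor these passes support its direction.

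pabpc1.S, for the cytoplasmic poly(A)-binding protein that holds messenger RNA tails, stood at 10.72, 13.18 and 12.18 with PER, against 9.94, 9.09 and 12.15 in controls. Its change of 1.63 (SE 0.74, adjusted p = 0.179 in limma) rested on 2 PER arrays and 1 control above background, and it was 0.99 without control replicate 2. The selection favours pabpc1.S too, so its p does not support its direction. It was the single tested pair of the 7 on the array that belong to the translation list.

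Pair 357, pair 363 and pair 70 have no gene name here. Pair 357 stood at 12.18, 11.32 and 12.32 with PER, against 10.36, 9.69 and 11.22 in controls, without overlap. No control array had it above background, and its measured means were 11.94 with PER and 10.42 in controls. With each control at the dimmest value above background on its array, the PER mean was 1.44-fold higher. That figure leaves out the spread between animals. PER replicate 2, at 11.32, lay below that dimmest value on control replicates 2 (11.89) and 3 (11.43). The interval of the fitted change ran from 0.32 to 2.72 on the log2 scale, at an adjusted p of 0.106 in limma. Pair 357 entered the test through the PER arrays alone, so neither that p nor the lack of overlap supports its direction. Without control replicate 2 its fitted change was 1.17, with an interval from -0.18 to 2.51. Its spots disagreed on PER replicate 2, at 4483 and 12971 units. Pair 363 stood at 13.17, 11.77 and 13.19 with PER, against 11.89, 10.59 and 9.77 in controls. There PER replicate 2 fell just below control replicate 1, and the change was 1.96 (SE 0.83, adjusted p = 0.149), or 1.91 without control replicate 2. It was above background on 3 PER arrays and 1 control, so it too is favoured by the selection and its p does not support its direction. Pair 70 stood at 13.73, 13.86 and 14.08 with PER, against 13.11, 13.31 and 13.62 in controls, without overlap on this scale. In deposited units it read 6977, 35502 and 22771 with PER, against 5685, 12744 and 16006 in controls, and overlapped. Its spots disagreed on control replicate 1, at 2511 and 8858 units, and on control replicate 2, at 22033 and 3454 units. The change of pair 70 was small, 0.54 (SE 0.27, adjusted p = 0.257 in limma), and it was 0.51 without control replicate 2.

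Over all 35 pairs on the normalized log2 scale, 3 did not overlap between the groups and were higher with PER (pairs 260, 357 and 70), or 8.57%. Another 3 did not overlap and were lower (ccnd1.L, ccnd2.L and ldhb.S), also 8.57%. The labels describe another selection: a fold of at least 2, a range within each group that, divided by 2, is no more than 1.1, and at least 4 spots. Applied to the normalized log2 values, 5 pairs passed the fold, all higher. Of these, 4 were among the 8 pairs above background on all 3 PER arrays and on fewer controls. The other, pabpc1.S, was above background on 2 PER arrays and 1 control, so the selection favours it too. Of those 4, 2 also passed the limit on the range, pair 357 and pair 363, or 5.71% of the pairs tested. Pair 260 failed that limit, with a half-range of 0.11 with PER and 1.51 in controls. Neither cyclin reached a 2-fold change.

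The energy metabolism list showed the other non-overlapping named gene. ldhb.S encodes the heart-type subunit of lactate dehydrogenase, which interconverts lactate and pyruvate. Its normalized log2 values were 14.58, 14.85 and 14.55 with PER, against 15.02, 14.85 and 14.99 in controls. The change was -0.29 (SE 0.17, adjusted p = 0.335 in limma), and -0.32 without control replicate 2. PER replicate 2 and control replicate 2 differed only in the fourth decimal, since quantile normalization gives the brightest spots of every array the same set of values.

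Deposited intensities keep the full range of the bright spots. There ldhb.S read 14680, 50601 and 33395 units with PER, against 43136, 127890 and 47435 units in controls, and the groups overlapped through PER replicate 2. Arrays differ in total brightness, so each of the 16 pairs that were above background on all 6 arrays was divided by the geometric mean of those 16 on the same array. That mean was 10126, 37310 and 24139 units on the PER arrays, against 13651, 31017 and 23816 units on the control arrays. Relative to it, ldhb.S was 1.45, 1.36 and 1.38 with PER, against 3.16, 4.12 and 1.99 in controls. The PER animals were close together and all below the controls, with a log2 difference of -1.08, or -0.85 without control replicate 2. In the limma setting centred on the same bright pairs, ldhb.S was lower by -1.07 with an adjusted p of 0.00815. It was lower in all 20 alternatives, from -1.10 to -0.24, and passed in 2 of them.

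Among the 16 pairs, 4 did not overlap in these ratios, or 25%: ldhb.S, pair 406 (-1.11) and pair 123 (-0.72) were lower with PER, and pair 70 (0.81) was higher. Pair 406 stood at 1.43, 1.07 and 1.49 times the geometric mean with PER, against 2.76, 5.31 and 1.56 times in controls. Control replicate 2 thus carried much of its difference (-0.66 without it). Pair 400 (-0.60) and gapdh.S (pair 397, -0.45) were lower on average too, with overlap. Only these pairs and the 3 lower ones stood above the geometric mean on all 3 controls. A lower ratio was thus not particular to ldhb.S, and its relation to brightness was not tested. The ratios of ccnd2.L (-0.26) and ccnd1.L (-0.11) overlapped. So did those of pcna.S, at 1.09, 1.39 and 1.26 with PER, against 0.96, 0.98 and 1.29 in controls. The widest scatter belonged to calb1.L, which encodes the calcium-binding protein calbindin: 10.82, 1.33 and 1.93 with PER, against 3.16, 0.37 and 1.61 in controls. A ratio within an array shows unequal change between pairs and not which of them changed.

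**Figure D4:**
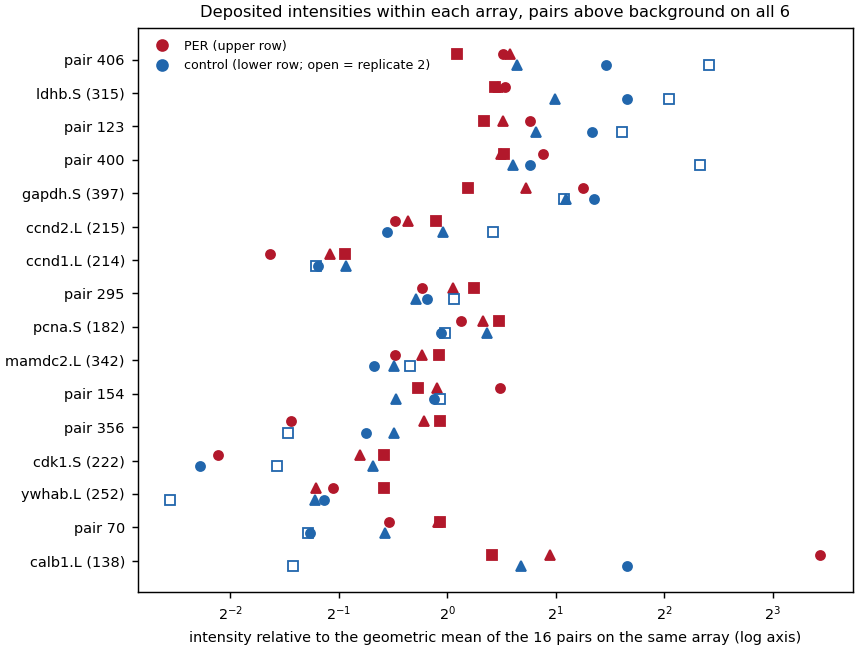
Points give deposited intensities relative to the geometric mean of the 16 bright pairs on the same array, on a log axis, with PER (red) above control (blue) for each pair and control replicate 2 as an open square. ldhb.S, pair 406 and pair 123 lie lower with PER without overlap and pair 70 higher, while both cyclins overlap.

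Of the 6 pairs of the energy list, 2 were tested, and their median change was -0.17. The other was a pair for gapdh.S (pair 397), glyceraldehyde-3-phosphate dehydrogenase of glycolysis, with a change of -0.04 (SE 0.31, adjusted p = 0.955 in limma), or -0.14 without control replicate 2. In deposited units it read 24144, 42602 and 39778 with PER, against 34780, 65290 and 50719 in controls. The remaining pairs for gapdh.S gave values on quite another level. Pair 394 read 616, 828 and 757 units with PER, against 790, 810 and 758 units in controls, and pair 402 read 546, 671 and 693 units with PER, against 821, 661 and 764 units in controls. Over the 12 hindlimb arrays of 96 h, pairs 394 and 402 averaged 755 and 653 units and pair 397 averaged 40863 units. Over the 12 inhibitor and control arrays of 24 h the same 3 pairs averaged 27575, 25096 and 26452 units. The 3 pairs for 1 gene thus read alike at 24 h and apart at 96 h.

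Pairs 394 and 402 belonged to a group whose deposited values hardly varied. Over the 12 hindlimb arrays of 96 h, 16 pairs had a coefficient of variation under 25%, a limit set after the values were seen, with 21.6% the highest inside it and 28.6% the lowest outside. Among the 35 tested pairs the coefficient ran from 28.6% to 131%, with a median of 68.0%. The 16 included all 5 pairs for rpl8.S, a protein of the large ribosomal subunit, as well as rpl35a.S, nme2.L and the 2 pairs for gapdh.S. The mean of the 5 rpl8.S pairs was 2263, 2108 and 1956 units with PER, against 1904, 2110 and 2183 units in controls, while the bright pairs varied over more than 3-fold. Neither the labels nor the table state how the deposited arrays were brought to scale, and the part of this in the results was not tested.

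The mean values of the 16 steady pairs lay between 653 and 2304 units, below or near the background limit of most arrays, so 0 of them were tested. Choosing them by low variation also limits how far PER and control can differ. Their log2 differences in deposited units ran from -0.36 to 0.53, with a median of 0.02. nme2.L, which encodes a nucleoside diphosphate kinase, read 2397, 2074 and 1962 units with PER, against 2676, 2847 and 2691 units in controls. All 3 PER animals were below all controls, 1 of 16 pairs or 6.25% to lie so, with a log2 difference of -0.36, or -0.33 without control replicate 2. That holds in deposited units. On the normalized log2 scale the means of nme2.L were 11.40 with PER (SD 0.82) and 11.92 in controls (SD 0.51), with overlapping spread. In deposited units pair 120, without a gene name here, did not overlap in the other direction (0.53), again 6.25%. Values for rpl35a.S were 2963, 1884 and 1923 units with PER, against 2151, 2130 and 2158 units in controls, and overlapped.

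Muscle markers were patchy in both groups. Of the 3 tested, tpm4.S (a tropomyosin) differed by 0.82 on the log2 scale (SE 1.00). des.1.S (desmin, the intermediate filament of muscle) differed by 0.22 (SE 0.56). myf5.L (a transcription factor of the muscle lineage) differed by 0.07 (SE 0.69). The adjusted p was 0.761, 0.911 and 0.955 in limma, in that order. Control replicate 2 was blank for myf5.L, so that change rests on 2 controls. Each of the 3 was above background on PER replicates 2 and 3 and on control replicate 3 only. The selection thus favours these pairs as high with PER. Their summed intensity ran from 6.40 to 44830 units with PER and from 0 to 19709 units in controls, values below 0 being counted as 0. These 3 pairs were thus not seen above background on 1 PER array and 2 control arrays, which does not show that muscle RNA was absent there. In whole limbs fewer cells of a type and less RNA per cell cannot be told apart. Without control replicate 2, tpm4.S read -0.01 and des.1.S -0.40.

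Markers of other tissues were low. Haemoglobin hbd.S, for blood, ran from 2549 to 6440 units with PER and from 1975 to 4237 units in controls, and differed by 0.18 (SE 0.49, adjusted p = 0.911 in limma), or by -0.25 without control replicate 2. The cartilage collagen gene col2a1.L, the nerve gene gap43.S, the cytokine gene il1b.S and the pituitary genes prl.1.L and gh1.S were above background on 0 of 6 arrays. So was pitx1.L, the homeobox gene that marks hindlimb against forelimb in vertebrates, so the tissue label could not be checked against it.

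Among transcription regulators, nkx2-2.S, a homeobox gene of the neural tube, differed by 0.41 (SE 0.41, adjusted p = 0.634 in limma), and by -0.33 without control replicate 2. It was the only tested pair of 15 on that list. foxd1.L (pair 39), a forkhead gene, was not tested: it read 702, 6948 and 9002 units with PER, against 311, 2477 and 285 units in controls. Another foxd1.L pair, pair 50, did not follow it, at -59.7, 811 and 1894 units with PER, against 330, 1448 and -5462 units in controls. Among PER and control arrays, 3 other untested named genes were likewise bright on PER replicates 2 and 3 only. tuba1, for alpha-tubulin, read -61.9, 17355 and 9552 units with PER, against 864, -1208 and 1256 units in controls. The glycolytic pkm.S read -28.8, 16102 and 6953 units with PER, against 532, -148 and 350 units in controls. Metallothionein mt4.L read 173, 6133 and 7645 units with PER, against 0, -1662 and 1742 units in controls. PER replicate 1 sat with the controls for pair 39 and these 3 genes. At 96 h tuba1 also read 4021, 6566 and 6124 units with PTU and 5811, 8349 and 77.3 with MMI. pkm.S read 4429 on PTU replicate 1 and 4735 on MMI replicate 1. Pair 39 read 6609 on MMI replicate 2 and mt4.L 3355 on PTU replicate 3, and their other PTU and MMI arrays were lower. Such brightness was thus not particular to PER. Pairs 88, 125, 364 and 403, without a gene name, were also above background on 2 PER arrays and 0 controls.

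Thyroid axis and hormone response genes were mostly out of reach. Of 10 on the array, 1 was tested, ncoa2.S, a coactivator of nuclear receptors, with a change of 0.24 (SE 0.70, adjusted p = 0.911 in limma). It read -0.46 without control replicate 2. thibz.L, a bZIP gene induced by thyroid hormone in tadpoles, read 46.9, 616 and 321 units with PER, against 539, -692 and 1676 units in controls, none of them above background. The hormone response genes thdl17.L, thdl18.S, fap.L and mmp9.1.S, and trh.S for thyrotropin-releasing hormone, were likewise above background on 0 of 6 arrays, and rxrb.L on control replicate 2 only. Of the lists for apoptosis (5 pairs), nuclear receptors (8), growth factor signalling (11) and matrix and cartilage (5), 0 pairs were tested.

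The other named genes overlapped between groups. On the log2 scale calb1.L differed by 0.61 (SE 0.35, adjusted p = 0.335 in limma), with control replicate 2 the lowest array, and by 0.19 without it. odc1.L, for ornithine decarboxylase of polyamine synthesis, differed by 0.79 (SE 0.68, adjusted p = 0.583), or by 0.70 without that array. It was above background on 2 PER arrays and 1 control, so the selection favours it as high with PER. The 14-3-3 gene ywhab.L differed by -0.37 (SE 0.52), but by 0.52 with the deposited values as they stand. mamdc2.L (-0.04) and psma2.L (-0.04), a subunit of the proteasome core, also changed sign there, at 0.18 and 0.30. Without control replicate 2 these 3 genes read -0.23, 0.068 and -0.89.

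The change at 96 h was then compared with that at 24 h, each against the controls of its own time, in 62 pairs. No pair was called in limma (0% of 62), and 13 had an unadjusted p under 0.05, or 21%, 10 higher and 3 lower at 96 h. The median half-width of the 95% interval was 1.42. At 96 h pabpc1.S was above background on 2 PER arrays and 1 control, with a change of 1.63. At 24 h it was above background on 0 PER arrays and 3 controls, with measured means of 10.24 with PER and 11.58 in controls. The mean was at least 1.71-fold lower with PER, a bound that leaves out the spread between animals. The change at 24 h was not tested by itself. The fitted difference of 2.98 (SE 1.04, adjusted p = 0.143), from 1.74 to 3.87 over its alternatives, thus rests on a group that was not above background. ccnd1.L stood at -0.81 at 96 h and 0.20 at 24 h, a difference of -1.01 (SE 0.40, adjusted p = 0.143), though with median centring it was 0.16. rest.S, for a repressor of neuronal genes, had a fitted difference of 1.58 (SE 0.61, adjusted p = 0.143), nearly all of it from 24 h. Its measured means were 11.12 with PER and 12.45 in controls at 24 h, a change of -1.33, with 2 PER arrays and 3 controls above background. At 96 h they were 10.96 with PER and 10.70 in controls, with 1 PER array and 0 controls above background.

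PTU and MMI at 96 h share their controls with PER, control replicate 2 included, so their changes against control are not independent. Changes with PTU and MMI are given only with that array. Without it the PER change was 1.60 for hmgn3.L and 0.62 for pair 260, so likeness between the chemicals may come from the shared controls, which was not tested. Against all 3 controls hmgn3.L read 2.15 with PER, 2.13 with PTU and 2.15 with MMI, and pair 260 read 1.54 with PER, 1.56 with PTU and 1.44 with MMI. ccnd1.L read -0.81 with PER, -0.28 with PTU and -0.15 with MMI, and ccnd2.L read -0.59 with PER, -0.37 with PTU and -0.29 with MMI. For ldhb.S the values were -0.29 with PER, -0.31 with PTU and -0.29 with MMI.

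Set directly against each other, without the controls, PER and PTU differed in 0 of 56 pairs (0%). By limma's unadjusted p, 1 pair lay under 0.05, or 1.79%. That was pair 88, at -1.31 (SE 0.43, adjusted p = 0.302). Next among named genes came nkx2-2.S at -0.84 (SE 0.41), ccnd1.L at -0.52 (SE 0.29) and id2.L, for an inhibitor of helix-loop-helix factors, at -0.93 (SE 0.51). Their adjusted p was 0.799 in each case. The median half-width of the interval was 0.96. The deposited values gave 0.12 for ccnd1.L.

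PER and MMI differed in 0 of 35 pairs (0%), with 5 at an unadjusted p under 0.05, or 14.3%. nkx2-2.S read 12.18, 12.55 and 13.00 on the normalized log2 scale with PER, against 13.58, 13.36 and 13.68 with MMI. That difference was -0.96 (SE 0.41, adjusted p = 0.195 in limma). ccnd1.L stood at 12.22, 12.49 and 12.51 with PER, against 13.02, 13.08 and 13.08 with MMI. The difference was -0.65 (SE 0.28, adjusted p = 0.195 in limma), and -0.10 in the weakest of its alternatives. In deposited units both genes overlapped: ccnd1.L read 3257, 19438 and 11402 with PER, against 13244, 14902 and 8934 with MMI. There nkx2-2.S read 3634, 21018 and 14671 with PER, against 20512, 16820 and 16305 with MMI. tpm4.S, measured on 2 of the MMI arrays, read -1.92 (SE 1.12, adjusted p = 0.490). The doses of the 3 chemicals differ (4, 20 and 100 mg/L), so these are differences between exposures as given and not between chemicals at one dose, and a missed threshold does not show that they act alike.

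**Figure D5:**
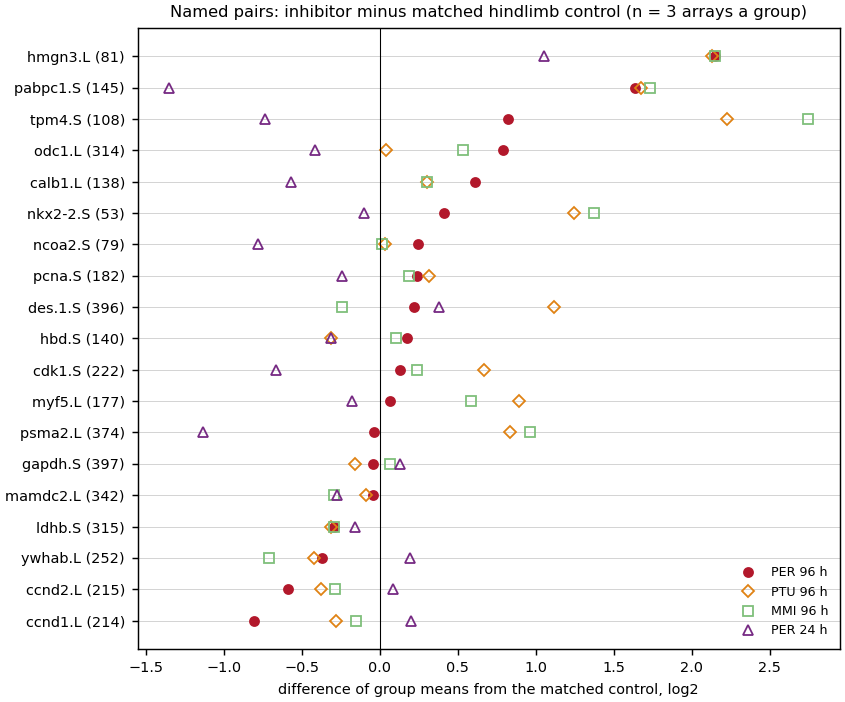
For each named pair tested, points give the difference of group means from the matched hindlimb control on the log2 scale, for PER at 96 h (filled), PTU and MMI at 96 h and PER at 24 h (open). The 3 inhibitors at 96 h share their controls, control replicate 2 included. ccnd1.L is lowest with PER at 96 h (-0.81) on this quantile-normalized scale, while it reads 0.09 with median centring.

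In the tail at 48 h, the other tissue taken with PER, PER arrays were set against tail controls of the same time. There 23 of the 35 pairs were also tested, and 0 of 48 tested there were called. Of these, pcna.S was 1.12 there (SE 0.43, adjusted p = 0.754 in limma), ldhb.S -0.05 and pair 260 0.14. Neither cyclin was tested in the tail.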

How the data were processed

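Single tadpole limbs gave the RNA, which was amplified and P32-labelled for cDNA arrays, per the labels' protocols. The deposited table holds linear spot intensities, many of them below 0, so background had been subtracted. Imager, background method and scaling are not stated there, and the number of arrays limits the precision. Groups were taken from the sample titles. The 812 spots form 406 duplicate pairs, 237 with 1 gene symbol, 169 with none and 0 with several. For 233 of these the platform's older symbol was replaced through its gene identifier by that of the RefSeq annotation of Xenopus laevis, used for names only, in which the endings L and S mark the subgenomes. Sequences and genome coordinates are not used here.

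Spots were passed through normexp (offset 50), put on the log2 scale, quantile normalized over the 38 hindlimb arrays and averaged over duplicates, in limma 3.58.1 (R 4.3.3, statmod 1.5.0). The offset shrinks changes of dim pairs. Array noise was taken as the median size of all values below 0, multiplied by 1.4826. A pair was tested where its mean exceeded 2 noise SD on at least 3 arrays of the groups compared. All hindlimb arrays were fitted by lmFit and eBayes with 1 coefficient a group, with Benjamini-Hochberg adjustment inside each of 4 hindlimb comparisons and a threshold of 0.05. Tail arrays were fitted apart, with adjustment over the 48 pairs tested there. The fit and the adjustment were run on simulated log2 values of pairs, and the steps before the fit were not tested in that way. Exact permutation tests were two-sided.

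The groups, gene lists and tests were chosen with earlier results of these data known. Every tested pair with a symbol is named, and values of each array are given for called pairs, the 8 smallest p-values and the tested cell cycle genes. In the other comparisons, called pairs and the 3 named pairs with the smallest p are given. The pairs that varied least, nme2.L among them, and the genes bright on 2 PER arrays were chosen after their values were seen. Gene symbols that matched a list by spelling alone were left out of it. Alternatives covered background, scaling, filter, arrays fitted, weights, a block of replicate numbers, leaving out each array and the selection described in the labels. Blanking spots at 0 and leaving out both arrays numbered 2 were added after the data were seen.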

Additional observations from a re-analysis of the deposited data

How the results depend on the processing

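The count of 1 pair called for PER against control depended on the processing. It was 0 with a floor in place of normexp, with the deposited values as they stand, with quantile normalization over the 2 groups alone, with only these 2 groups in the fit, with pairs above background on 2 arrays admitted (53 pairs), with no filter (399 pairs), with array weights, with the replicate number as a block and with control replicate 2 and PER replicate 2 both left out. It was 10 with median centring (8 higher, 2 lower), 4 with centring on bright pairs (2 higher, 2 lower: ldhb.S and pair 406), 3 with spots at 0 as blank (1 higher, 2 lower) and 2 by the selection described in the labels. Leaving out 1 array gave 0 to 5 calls: 0 without control replicate 2 or any PER array, 2 without control replicate 1 (pair 260 and ccnd2.L) and 5 without control replicate 3 (pair 260, pair 357, hmgn3.L, ccnd1.L and nkx2-2.S). The number of pairs called stayed at 1 with complete pairs and with robust empirical Bayes.

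The count of 0 for the difference between 96 h and 24 h was 1 with spots at 0 as blank (ccnd1.L, -1.40) and 0 to 6 with 1 array left out: 6 without 96 h control replicate 3, pabpc1.S at 3.87 among them, and 1 without 24 h control replicate 1. Against PTU it was 2 with spots at 0 as blank (pair 88 and ccnd1.L, -0.87), and against MMI 1 (ccnd1.L, -0.97) and 0 to 1 with 1 array left out. Blanking these spots also lowered the median change over all pairs tested. It went from 0.31 to 0.043 for the difference between times. Against PTU it went from -0.008 to -0.17, and against MMI from 0.003 to -0.10.

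Several named genes changed sign. With the deposited values, ywhab.L, mamdc2.L and psma2.L read 0.52, 0.18 and 0.30, with median centring 0.75, 0.42 and 0.54, and with bright centring 0.55, 0.22 and 0.34. With median centring ccnd1.L read 0.092, and 0.16 for the difference between times; with the deposited values it read 0.12 against PTU. The floor gave -0.38 for ncoa2.S and 0.18 for psma2.L. Array weights gave -0.47 for hbd.S, 0.029 for gapdh.S and 0.0091 for psma2.L. Blanked spots gave -0.23 for cdk1.S and -0.12 for myf5.L. Without both arrays numbered 2, nkx2-2.S read -0.32, ncoa2.S -0.68, cdk1.S -0.066, gapdh.S 0.066 and mamdc2.L 0.029. With 1 array left out the ranges were -0.33 to 1.14 for nkx2-2.S, -0.0086 to 2.16 for tpm4.S, -0.40 to 0.69 for des.1.S, -0.59 to 0.69 for hbd.S, -0.46 to 0.75 for ncoa2.S, -0.38 to 0.63 for cdk1.S, -0.16 to 0.18 for gapdh.S, -0.43 to 0.60 for myf5.L, -0.13 to 0.068 for mamdc2.L and -0.89 to 0.83 for psma2.L. The causes were not tested.

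Equal replicate numbers showed no clear pairing of the animals. Deviations from the group means correlated at 0.32, -0.24 and 0.50 between same-numbered PER and control arrays, and 1 of 3 PER arrays correlated best with its own number. With 3 arrays a group, these correlations cannot decide whether the animals were paired. The block gave 0 calls, pair 260 at an adjusted p of 0.156, and -0.10 for myf5.L. Signal over background limited the tests to 35 of 406 pairs.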
